A study of Rattus norvegicus with 4 samples.

Results

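The ATF4 branch of the integrated stress response was described through 10 genes in rat macrophages exposed to carbon black. The genes were Atf4 and Ddit3, which encode the transcription factors ATF4 and CHOP, and 8 genes known as targets of one or both: Trib3, Chac1, Asns, Atf3, Atf5, Ddit4, Sesn2 and Ppp1r15a. They were chosen by function from all 16576 named genes on the array, after the levels and the spread of a wider stress response list on these same arrays had been seen. Their levels and their profile over the arrays are therefore given as a description, with no test. The genes were found by the transcript accession of their probes, and 11 probes represented the 10 genes.

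The samples were 4 biological replicates of 1 group, NR8383 cells incubated for 4 h with carbon black (Printex 90) at 0.9 cm²/cm². NR8383 is a continuous line of rat alveolar macrophages obtained from a lung lavage, and Printex 90 is an industrial powder of carbon nanoparticles. The labels give no strain, and all samples were described as cells after 20 passages of 1 line, so they are cultures and not separate animals. The series design compares these cells with cells kept without particles, which were not analysed here. No effect of carbon black can be read from the values below, which are levels in exposed cells and differences between exposed cultures.

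The integrated stress response is a pathway in which kinases that sense amino acid shortage, unfolded proteins, heme deficit or double-stranded RNA phosphorylate the translation factor eIF2. Protein synthesis then slows in general, while translation of the Atf4 mRNA rises, and ATF4 activates genes of amino acid supply, redox balance and feedback control. CHOP, itself an ATF4 target, adds genes linked to cell death and to recovery of translation. Because ATF4 is largely controlled through translation, its mRNA is only 1 layer of its activity, and no protein was measured here.

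Each sample was hybridised to its own 1-colour Agilent array, and the 4 arrays shared 1 slide and 1 scan, so where an array sat and which culture it held cannot be told apart. Levels are on a log2 scale on which 0 is the 75th percentile of the probes of the same array, an intensity of 109.1, 93.7, 63.7 and 63.8 on replicates 1 to 4. Between 17075 and 18634 probes per array were marked well above background by the scanner software, and no spot was saturated. All 8 macrophage markers examined, among them Cd68, Ptprc and Spi1, were well above background on all 4 arrays. Of 25 measured markers of epithelial, fibroblast, endothelial, T, B and granulocytic cells, 22 were on no array, the endothelial Cdh5 and the granulocyte S100a8 were on some, and the B cell gene Pax5 was on all 4. Probes differ in how well they bind, so levels are compared between arrays and not between genes. In these bulk samples, fewer cells with a transcript and less transcript per cell cannot be told apart.

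All 10 genes of the ATF4 branch were well above background on all 4 arrays, against 48.0% of the 16576 named genes. All 10 also had their lowest level on replicate 1, against 38.8% of the 13446 genes and unnamed transcripts detected on all arrays. The number was 8 with another background correction (normexp), where Atf3 and Ddit4 were lowest on replicate 3, against 23.2% of detected genes. It was 10 under the other scalings tried, against 30.3%, 30.7% and 33.0% of detected genes. Before any scaling it was 2, Trib3 and Sesn2, and the share of detected genes was not computed there. Because the pattern of a wider list was known when the genes were chosen, the count is no independent evidence. The 3 other arrays lay closer together than their distance from replicate 1 for 8 of the 10 genes, all but Atf3 and Ddit4, and for 16.4% of detected genes.

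**Figure D1:**
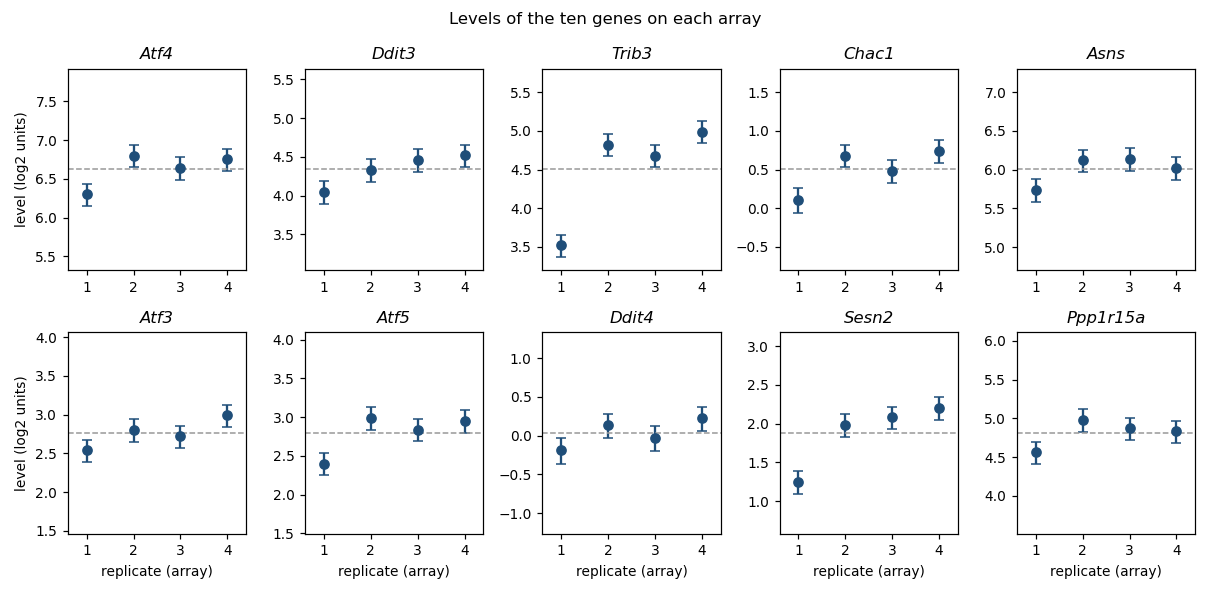
Levels of the 10 genes (log2 units relative to the array's 75th percentile) on the arrays of replicates 1 to 4. Bars are the scanner software's error of the spot and dashed lines the mean over arrays, and every panel spans the same height. Replicate 1 is the lowest point in each panel, and the drop is widest for Trib3, at 3.52 against 4.68 to 4.99 on the other arrays.

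Among the transcription factors, Atf4 had levels of 6.30, 6.80, 6.64 and 6.75 on replicates 1 to 4, a mean of 6.62 ± 0.23 (SD, n = 4). Replicate 1 lay 0.34 below the nearest other array, and the 3 others spanned 0.16. The Atf4 probe was spotted 10 times on each array, and these spots differed by a mean SD of 0.060 within an array, which covers spot noise only and not labelling, hybridisation or culture. Ddit3, whose product CHOP forms dimers with C/EBP factors, had levels of 4.05, 4.33, 4.46 and 4.52 (4.34 ± 0.21). Atf3, a bZIP repressor and activator induced early in many stresses, had levels of 2.54, 2.80, 2.72 and 2.99 (2.76 ± 0.19). Atf5, a close relative of ATF4 that is itself under translational control, had levels of 2.40, 2.99, 2.84 and 2.95 (2.79 ± 0.27). All 4 factor genes were lowest on replicate 1, and the highest array was replicate 4 for Ddit3 and Atf3 and replicate 2 for Atf4 and Atf5. The ratio of the highest to the lowest array was 1.42-fold for Atf4, 1.38-fold for Ddit3, 1.37-fold for Atf3 and 1.5-fold for Atf5.

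Among the feedback genes, Trib3, a pseudokinase that binds ATF4 and CHOP and dampens their activity, varied most. Its processed intensity was 1253, 2653, 1631 and 2029 on replicates 1 to 4, and its levels were 3.52, 4.82, 4.68 and 4.99 (4.50 ± 0.67). Replicate 1 lay 1.16 below the nearest other array, while the 3 others lay within 0.31 of each other. The highest level was 2.77-fold above the lowest. Ppp1r15a, which encodes the phosphatase subunit GADD34 that reverses eIF2 phosphorylation, had levels of 4.56, 4.98, 4.87 and 4.83 (4.81 ± 0.18). Its highest level was 1.33-fold above its lowest.

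Sesn2, a leucine sensor that restrains mTORC1 and supports antioxidant defence, had levels of 1.25, 1.98, 2.08 and 2.20 (1.88 ± 0.43). Replicate 1 was again apart, 0.74 below the nearest array, and the others spanned 0.22. Ddit4, whose product REDD1 also restrains mTORC1, had levels of -0.19, 0.13, -0.03 and 0.22 (0.03 ± 0.18), so that replicate 1 lay only 0.15 below replicate 3. A second Ddit4 probe was dimmer, with levels of -3.36, -1.92, -2.76 and -2.12. It was well above background on replicates 2 and 4, so its values on replicates 1 and 3 are only bounds and have no order.

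Of the genes of amino acid and glutathione metabolism, Asns, which makes asparagine from aspartate and glutamine, had levels of 5.74, 6.12, 6.14 and 6.02 (6.0 ± 0.18). It was the only 1 of the 10 genes with its highest level on replicate 3, and replicate 1 lay 0.29 below the nearest array. Chac1, which breaks down glutathione and is induced through ATF4, ATF3 and CHOP, had levels of 0.11, 0.68, 0.48 and 0.74 (0.51 ± 0.28). Its highest array was 1.55-fold above its lowest, and the 3 upper arrays spanned 0.26.

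As a description, the promoters were searched for sequences that ATF4 and related factors are known to bind. A link between matches and levels was not tested. The window ran from 250 bases before to 50 after each gene's start in RefSeq (build GRCr8), and 9 of the 10 genes had an entry, all but Atf3. The core of the C/EBP-ATF response element, TGATGNAA on either strand, was in 2 of the 9, Trib3 and Chac1, and in 3.98% of all 33469 promoters. The full cAMP response element, TGACGTCA, was in 1 of the 9, Ppp1r15a, and in 1.83% of all promoters. The 250 bases before the start of these 3 genes of the branch are shown 5′ to 3′ on the gene's strand because they hold the only matches, which are in capitals. They lie at chr3:161275534-161275783 (minus strand) for Trib3, at chr3:126795881-126796130 (plus strand) for Chac1, and at chr1:105139597-105139846 (minus strand) for Ppp1r15a.
Trib3: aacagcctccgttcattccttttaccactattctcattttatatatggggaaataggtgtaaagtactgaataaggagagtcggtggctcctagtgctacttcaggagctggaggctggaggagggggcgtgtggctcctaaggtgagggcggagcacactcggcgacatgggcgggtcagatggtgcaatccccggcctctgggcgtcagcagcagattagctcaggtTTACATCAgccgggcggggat
Chac1: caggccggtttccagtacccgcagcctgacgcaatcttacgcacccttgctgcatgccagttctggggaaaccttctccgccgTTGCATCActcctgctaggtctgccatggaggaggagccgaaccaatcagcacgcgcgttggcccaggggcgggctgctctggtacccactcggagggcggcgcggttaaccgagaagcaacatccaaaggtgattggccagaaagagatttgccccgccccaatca
Ppp1r15a: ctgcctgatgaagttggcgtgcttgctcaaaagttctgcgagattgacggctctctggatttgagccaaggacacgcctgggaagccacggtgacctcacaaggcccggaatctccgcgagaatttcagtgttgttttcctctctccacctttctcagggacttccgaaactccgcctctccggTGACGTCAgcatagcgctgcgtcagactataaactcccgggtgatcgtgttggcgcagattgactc
The match in Trib3 reads TTACATCA at positions -21 to -14 from the start, that in Chac1 reads TTGCATCA at -167 to -160, and both are the element on the opposite strand. That in Ppp1r15a lies at -66 to -59. For the other 6 genes with an entry, no match says only that these letters were not in this window.

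Set against each gene's own mean, the 10 genes had a median deviation of -0.31, 0.14, 0.05 and 0.18 on replicates 1 to 4. The medians over all detected genes on the same arrays were -0.040, 0.070, 0.011 and -0.028. On replicate 1 every one of the 10 genes lay below its mean, from -0.98 for Trib3 to -0.22 for Atf3 and Ddit4. On replicate 4 all 10 lay above it, from 0.02 to 0.49, although with normexp 3 lay below. On replicate 2, only Ddit3 was below its mean, by a deviation of -0.01, and on replicate 3, Chac1, Atf3 and Ddit4 were. The share of all detected genes below or above their own mean was not computed, so these counts have only the medians beside them.

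**Figure D2:**
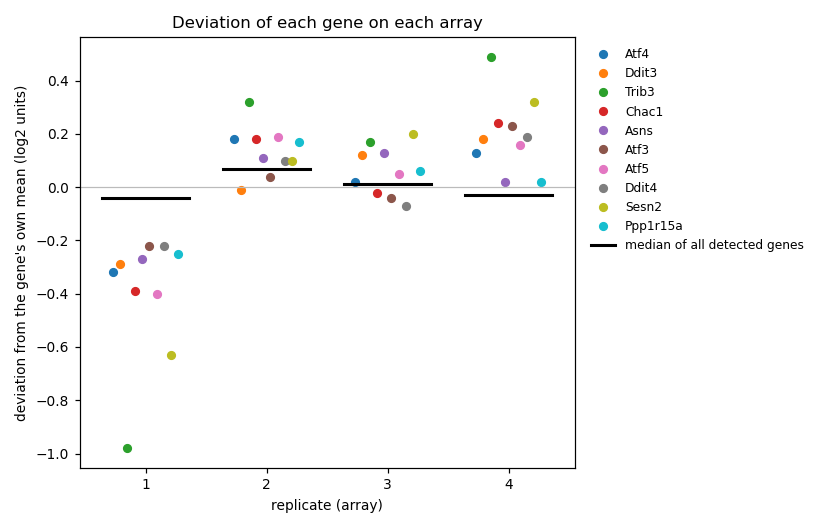
Deviation of each of the 10 genes from its own mean over the arrays (log2 units), by replicate. Points are genes and black lines the median over all detected genes. All points of replicate 1 lie between -0.98 and -0.22, below the median of all detected genes at -0.040, and no point of another array lies below -0.07.

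From replicate 1 to replicate 4 the level was higher for 10 of the 10 genes and for 51.3% of detected genes. The difference had a median of 0.46 over the 10 genes and 0.009 over detected genes, and was 1.47 for Trib3, 0.95 for Sesn2, 0.63 for Chac1, 0.55 for Atf5 and 0.27 for Ppp1r15a, the smallest. With normexp the median difference fell to 0.16 for the 10 genes and -0.113 for detected genes. Replicate 4 was the highest array for 6 genes, namely Ddit3, Trib3, Chac1, Atf3, Ddit4 and Sesn2, against 19.0% of detected genes. With 3 other scalings it was the highest for 8 genes, against 30.3%, 21.4% and 25.1% of detected genes, and with normexp for Ddit4 alone, against 14.5%. The identity of the highest array thus moved with the processing.

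The scaling itself entered these differences, because replicate 1 was the brightest array. Before scaling, replicate 1 had the lowest processed intensity of Trib3 and Sesn2 only. For Sesn2 it was 259.1, against 269.7 on replicate 3, a gap smaller than the software's errors of 26.4 and 27.1. Of the other 8 genes, 6 were dimmest on replicate 3 and 2, Asns and Ppp1r15a, on replicate 4. These were the 2 dimmest arrays, with 75th percentiles of 63.7 and 63.8. The share of all detected genes dimmest on each array was not computed. A comparison that any single scaling factor per array leaves unchanged was therefore added after the values had been seen. The median deviation of the 10 genes minus that of 18 detected genes of the ATF6 and XBP1 arm, the chaperone branch of the unfolded protein response, was -0.31, 0.04, 0.05 and 0.28 on replicates 1 to 4. With normexp it was -0.29, 0.00, 0.06 and 0.28. The same difference to 12 housekeeping genes was -0.22, 0.09, 0.01 and 0.19, and -0.15, 0.05, 0.02 and 0.17 with normexp. Without replicate 1, the difference to the ATF6 and XBP1 arm was -0.08, -0.08 and 0.18 on replicates 2 to 4. That to the housekeeping genes was then -0.02, -0.09 and 0.12. These differences reuse values already seen and were not tested. Those to the ATF6 and XBP1 arm also hold that list's own median deviations, 0.01 on replicate 1 and -0.10 on replicate 4.

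Within the branch the genes did not keep a fixed ratio. Relative to Atf4 on the same array, Trib3 was 1.02 log2 units higher on replicate 4 than on replicate 1, and Sesn2 was 0.50 higher. For the other 7 genes this difference lay between -0.18 for Ppp1r15a and 0.18 for Chac1. Across the 45 pairs of genes, the root mean square difference between profiles of deviations over the 4 arrays was smallest for Atf3 and Ddit4 (0.04 log2 units), Atf4 and Atf5 (0.042) and Asns and Ppp1r15a (0.046). It was largest for Trib3 and Ppp1r15a (0.446). The median to the other genes was 0.415 for Trib3 and 0.223 for Sesn2, against 0.089 to 0.134 for the other 8. On these scaled levels, Trib3 and Sesn2 differed from the rest in size rather than in which array was lowest. Before scaling, replicate 1 was the lowest array of these 2 genes only.

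The SD between arrays was above the median of all detected genes, 0.150, for all 10 genes, with a median of 0.217 and a range from 0.177 to 0.667. Among detected genes of similar mean level, sorted into 10 equal bins, Trib3 stood at the 99.3rd percentile of SD, Sesn2 at the 97.6th, Atf5 at the 93.9th and Atf4 at the 92.2nd. The other genes stood between the 77.8th and the 89.5th, except Ddit4 at the 47.4th. Without replicate 1 the median SD of the 10 genes was 0.103, below the 0.128 of detected genes, and without each other replicate it lay between 0.241 and 0.255. The scanner software's own error was between 10.0% and 11.2% of the intensity for the probes used. It stayed in this narrow range for the brighter and dimmer of the probes used. The second Ddit4 probe, dimmer still and not used, had errors of 44.7%, 13.6%, 25.4% and 19.3% on replicates 1 to 4. This error is the software's estimate rather than a spread between repeats. The repeated Atf4 spots, for comparison, differed by a mean SD of 0.060 log2 units within an array. With only 4 arrays the SDs between arrays are themselves imprecise, and they measure the spread between these 4 cultures and their hybridisations together.

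**Figure D3:**
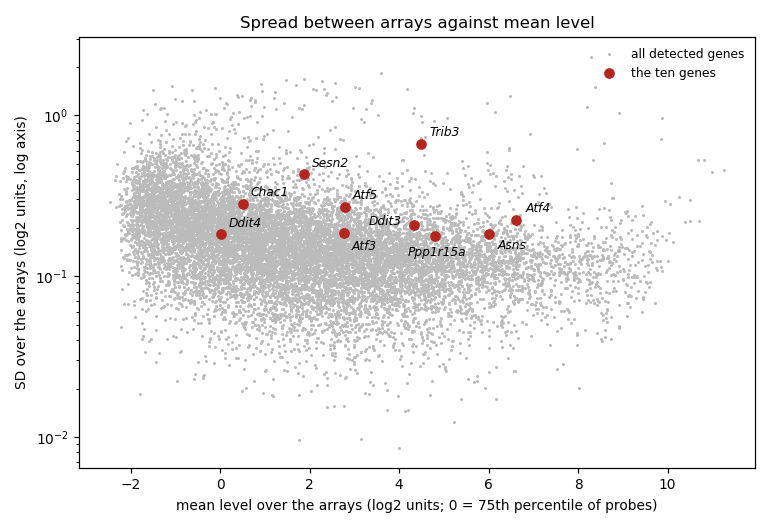
SD over the 4 arrays (log2 units, log axis) against mean level (log2 units, 0 being the 75th percentile of probes). Grey points are all 13446 genes and unnamed transcripts detected on all arrays, and red points the 10 genes. Trib3 (SD 0.667) and Sesn2 (0.43) stand at the upper edge for their level, and Ddit4 (0.182) in the middle.

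Genes around the branch were taken from lists written down with the earlier results known, and are described in the same way. All 17 measured genes for eIF2 kinases, eIF2 subunits, the exchange factor eIF2B and their regulators were detected on all arrays. Of these, 6 (35.3%) were lowest on replicate 1, near the 38.8% of all detected genes. The median deviation of the 17 was -0.01 on replicate 1 and 0.01 on replicate 4. The eIF2 kinase gene Eif2ak3, which encodes PERK, had levels of 1.17, 1.26, 1.13 and 0.81, and Eif2ak4, which encodes the amino acid sensor GCN2, 0.18, -0.22, -0.14 and 0.05. Eif2s1, the subunit that is phosphorylated, had 5.20, 5.21, 5.22 and 5.23. These 3 were named after their values were seen. The widest spreads were those of the eIF2B subunits Eif2b1 (1.09 ± 0.30) and Eif2b3 (2.51 ± 0.27), both lowest on replicate 1.

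Of 17 measured bZIP genes whose products can pair with ATF4 or CHOP or belong to the same factor families, 13 were detected on all arrays. Maf and Atf7 were well above background on 3 arrays, and Cebpa and Batf on none. Of the 13, 6 (46.2%) were lowest on replicate 1, against 38.8% of all detected genes. Mafg, a small MAF protein, had the widest spread, with levels of 3.29, 4.32, 4.22 and 4.46 (4.07 ± 0.53), and Fos the next, lowest on replicate 4 at -1.57. Cebpg, a known partner of ATF4, had levels of 3.68, 4.20, 4.16 and 4.14, and was named after its values were seen.

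Amino acid supply and tRNA charging are known outputs of ATF4. Of 19 measured genes of amino acid transport and synthesis, 15 were detected on all arrays, and Slc7a3, Slc6a9, Slc43a1 and Cbs on none. Of the 15, 10 (66.7%) were lowest on replicate 1, against 38.8% of all detected genes, and the median deviation there was -0.18. The others were Slc7a11, Slc1a5, Psph, Pycr1 and Gpt2. Slc7a5, a subunit of the large neutral amino acid transporter, had levels of 0.43, 1.25, 0.74 and 0.68 (0.77 ± 0.35), and the proline synthesis enzyme Aldh18a1 1.56, 2.31, 2.15 and 2.00 (2.00 ± 0.32). Of 12 measured cytosolic tRNA synthetase genes, 12 were detected on all arrays. All but Aars1, 11 of the 12 (91.7%), were lowest on replicate 1, against 38.8% of all detected genes. The shift of the 12 was small, with a median deviation of -0.14 on replicate 1, and their median SD of 0.121 was below that of all detected genes. Sars1 (4.02 ± 0.25) and Yars1 (3.93 ± 0.21) had the widest spreads. Only Eprs1 was highest on replicate 4, where the median deviation of the list was -0.02, against 0.18 for the 10 genes of the branch.

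Of 17 measured other genes linked to ATF4 or CHOP, 14 were detected on all arrays, and Fgf21, Stc2 and Vldlr on none. Of the 14, 11 (78.6%) were lowest on replicate 1, against 38.8% of all detected genes. The exceptions were Bbc3, Nrip1 and Eif4ebp1, and the median deviation of the 14 on replicate 1 was -0.22. Hmox1, the heme-degrading enzyme also driven by NRF2, had levels of 7.63, 8.49, 8.29 and 8.90 (8.33 ± 0.53). Gadd45a, a stress and DNA damage gene, had 2.81, 3.29, 3.13 and 3.73 (3.24 ± 0.38). On replicate 4 they were 1.27 and 0.92 higher than on replicate 1, beside 1.47 for Trib3 and 0.95 for Sesn2. The stress cytokine gene Gdf15 had levels of 4.28, 5.13, 4.93 and 4.87, and the stress protein gene Nupr1 0.58, 1.03, 1.18 and 1.20. These 2 were named after their values were seen.

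The ATF6 and XBP1 arm holds chaperones and degradation factors of the endoplasmic reticulum. Of its 19 measured genes, 18 were detected on all arrays, and Ern1, the gene of the sensor IRE1, on none. Of the 18, 5 (27.8%) were lowest on replicate 1, namely Pdia6, Dnajb11, Calr, Creld2 and Sel1l, against 38.8% of all detected genes. On replicate 4, 6 of the 18 were higher than on replicate 1, against 51.3% of all detected genes. The median deviation was 0.01 on replicate 1 and -0.10 on replicate 4. Creld2 (1.95, 2.72, 2.51 and 2.61) and Dnajb9 (-0.84, -1.01, -1.10 and -0.44) had the widest spreads. Of the 12 housekeeping genes, all detected, 5 (41.7%) were lowest on replicate 1, namely Actb, Gapdh, Tbp, Pgk1 and Ywhaz. Actb, which encodes beta-actin, had levels of 8.73, 9.11, 9.21 and 9.32 (9.09 ± 0.26), and its difference of 0.59 between replicates 4 and 1 was above the median of 0.46 of the branch. The 12 genes had median deviations of -0.09, 0.05, 0.04 and 0.00, with the widest spreads in Rplp0 (10.06 ± 0.28) and Ppia (8.47 ± 0.26). None of these differences between lists was tested.

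**Figure D4:**
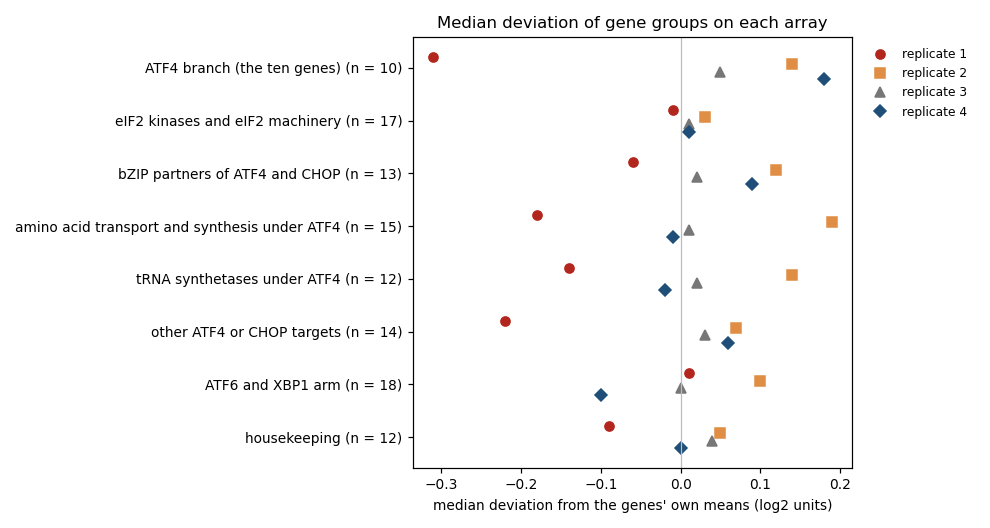
Median deviation from the genes' own means (log2 units) for the 10 genes and 7 other lists, with the number of detected genes of each. Each symbol is the array of 1 replicate. Replicate 1 lies at -0.31 for the ATF4 branch, between -0.22 and -0.14 for the 3 lists of further ATF4 or CHOP targets, and at 0.01 for the ATF6 and XBP1 arm.

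The profile of Trib3, the gene with the widest spread, was set against those of the 7952 named genes detected on all arrays. Likeness was the root mean square difference between deviations over the 4 arrays, a measure that picks genes of equally wide spread. The nearest named genes outside the branch were Mafg (0.118 log2 units), the MAP kinase phosphatase gene Dusp1 (0.125), Terf2ip (0.129), Adnp2 (0.169) and the cell cycle regulator gene Rgcc (0.180). Dusp1 had levels of -1.40, -0.38, -0.57 and -0.10. Of the branch, Sesn2 (0.223) was the 20th nearest named gene and Chac1 (0.343) the 163rd, while Atf4 (0.390) was the 376th. These genes were the nearest of many on only 4 values each, and the order describes these arrays alone.

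**Figure D5:**
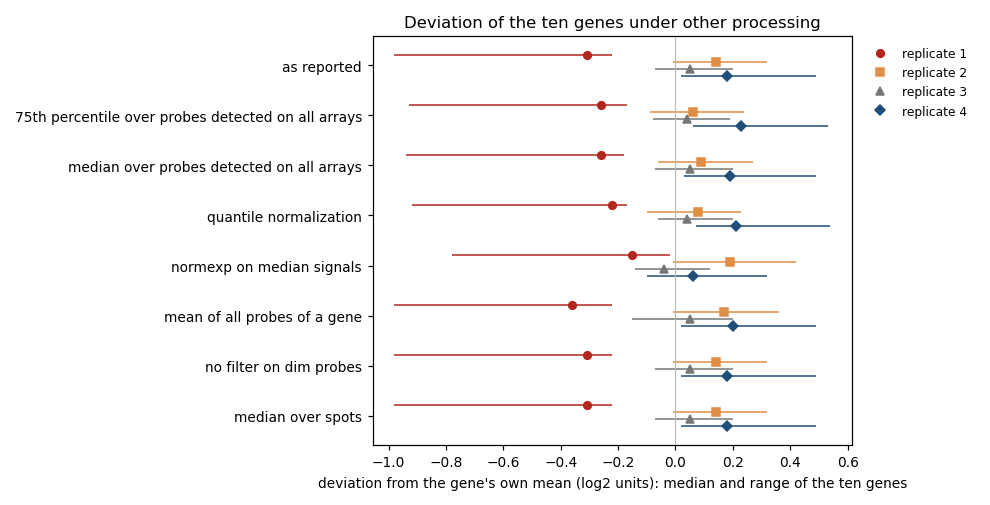
Deviation of the 10 genes from their own means (log2 units) on each array as reported and under 7 other ways of processing. Symbols are medians over the genes and lines run from the lowest to the highest gene. The range of replicate 1 stays below 0 in all 8, from a median of -0.36 to one of -0.15, and is nearest to 0 with normexp. Some of these could hardly differ. Leaving out the filter on dim probes keeps the values of the 10 genes. The median over spots can change only Atf4, and the mean of all probes only Ddit4.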

How the data were processed

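Labelled RNA of 4 exposed cultures, 1 group, was measured on 1-colour arrays, and the group and the replicate number came from the sample titles. Per the labels' protocols, cells were seeded for 48 h in 25 cm² flasks. The authors deposited 1 scanner file per sample. As given per the file headers, and in the submitters' processing notes, Agilent Feature Extraction 11.0.1.1 computed the intensity, which is background-subtracted and detrended within an array and not normalized between arrays, with a small positive floor for low spots.

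From these files, log2 processed intensity was averaged over a probe's spots, leaving out control and non-uniform spots and 12 of 45598 probes with no usable spot on some array, and each array's 75th percentile over probes was subtracted. Accessions without versions were matched to RefSeq symbols (GRCr8), which named 21101 probes (46.3%). A gene was represented by its probe with the highest mean, and was detected on an array if the software marked at least 50% of the spots of any of its probes. With 1 group and members chosen on earlier results, no test between groups was run and no p-value is given. Single arrays far from the others were looked for with Dixon's critical value. The members and all gene lists were chosen with earlier results of these data known. The summaries were tested on simulated data.

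The genes named were the 10 members, in each list the 2 detected genes with the largest SD and those behind a count of 5 or fewer, and the 5 named genes nearest to the profile of the member with the largest SD, leaving out uncharacterised LOC symbols. Others are said to have been named after their values were seen. Normexp correction and quantile normalization used limma 3.58.1 in R 4.3.3, and the rest Python 3.11.15. Alternatives were other scalings, background correction, spot and probe averaging, no filter on dim probes, and leaving out each replicate.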

Additional observations from a re-analysis of the deposited data

Results flagged for a closer look

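In 28 named genes, the gap between the highest or lowest array and the nearest other array was set against the whole range over the 4 arrays, with Dixon's critical value for 4 samples as the limit. Chance alone passes this limit in about 1 in 20 genes taken without regard to their values. These 28 genes were picked with their values known or for their spread, and many were lowest on the same array, so that rate does not apply to them and the shares are descriptions. None of the 10 genes of the ATF4 branch passed it, with Trib3 nearest at 0.787, and 2 other genes did. The seryl-tRNA synthetase gene Sars1 had levels of 3.66, 4.14, 4.17 and 4.13 on replicates 1 to 4, a share of 0.922, and had been picked for its SD. Terf2ip, which encodes a telomere-binding protein, had levels of -1.54, -0.41, -0.48 and -0.42, a share of 0.934. Terf2ip had been picked for a profile like that of Trib3, so its low value on replicate 1 follows from that choice.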

How the results depend on the processing

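Detection rests on the scanner software's marks, which the alternatives leave as they are, so the 10 detected genes are no sign of stability. The median deviation on replicate 1 stayed below 0 in each that keeps that array, from -0.36 with the mean of all probes of a gene to -0.15 with normexp. All 10 genes were lowest on replicate 1 except with normexp, where 8 were, against 23.2% of detected genes there and 38.8% as reported. With the mean of all probes, Ddit4 was counted there with values that were not all well above background. With normexp the median difference of replicate 4 minus replicate 1 was 0.16 against 0.46. There 1 gene against 6 was highest on replicate 4, beside 14.5% against 19.0% of detected genes. With the mean of all probes 5 genes were, beside 20.0%. The offset of 50 in normexp lies close to the intensities of dim genes, and Ddit4 then had an SD of 0.05 against 0.18. Bright genes moved too. On replicates 1 and 4, Atf4 went from 6.30 and 6.75 to 5.63 and 5.77, and Asns from 5.74 and 6.02 to 5.10 and 5.11. The cause of the changes was not tested. Normexp used the median signal, and the planned one on the mean signal was not run, as the columns used here give medians. Both this and the median over spots were chosen after seeing the data. Leaving out 1 replicate at a time, the median SD ran from 0.103 to 0.255 and the median deviation on replicate 1 from -0.28 to -0.27. The number highest on replicate 4 was 6, 8 and 6 without replicates 1, 2 and 3. The shares of detected genes were 25.4%, 29.3% and 25.2%, so they rose as well. With the mean of both probes the SD of Ddit4 was 0.41, which includes the second probe's values on replicates 1 and 3 that are only bounds. Mean levels moved by more than their SD for all 10 genes under the 3 other scalings and for 7 with normexp; the 3 scalings set another zero. No paired analysis was possible because there was 1 group. Ddit4 and Chac1, the dimmest members, lay nearest to background, where the lowest intensity marked well above it was 22.3, 11.3, 10.8 and 12.1 on replicates 1 to 4.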
